A study of Mus musculus with 3 samples.

Results

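The D-type cyclins Ccnd1, Ccnd2 and Ccnd3, their kinase partner Cdk6 and the inhibitor Cdkn1b were described by the histone marks around them in a mouse model of precursor B-cell leukaemia grown in culture. The members are the peaks of each mark that share at least 1 bp with any of 5 fixed windows of mouse build mm9: chr7:152090000-152150000 for Ccnd1, chr6:127050000-127130000 for Ccnd2, chr17:47620000-47760000 for Ccnd3, chr5:3310000-3550000 for Cdk6 and chr6:134840000-134900000 for Cdkn1b. They numbered 42 of 29468 peaks of acetylated histone H3 lysine 27 (H3K27ac) and 23 of 18142 peaks of trimethylated histone H3 lysine 4 (H3K4me3). The cells were driven by Bcr-Abl, a fusion that encodes a constitutively active tyrosine kinase, and were grown in serum-containing medium with no stimulation or drug. The labels name no other allele and do not say whether the line is clonal. There were 3 samples, all of these cells, 1 immunoprecipitated for H3K27ac, 1 for H3K4me3 and 1 with control IgG. The IgG library was not analysed here.

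D-type cyclins bind Cdk4 or Cdk6 and switch on their kinase activity, which phosphorylates the retinoblastoma protein and releases E2F factors so that a cell can pass from G1 into S phase. Cdkn1b encodes p27Kip1, a protein that inhibits cyclin-dependent kinases, above all those bound by cyclin E or A, and holds cells in G1. In B-cell precursors cyclin D3 is needed for the divisions that follow expression of the pre-B receptor, cyclin D2 is a target of STAT5 and of B-cell receptor signalling, and Bcr-Abl leukaemia cells are known to depend on Cdk6. H3K27ac marks active promoters and enhancers, and H3K4me3 marks the promoters of genes that are active or ready to be. Neither mark measures the RNA or protein of a gene.

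The regulatory letters at the start sites of 3 of the 5 genes are shown because all of the windows hold wide H3K4me3 peaks, a mark that favours CpG-rich promoters. The sequences are from RefSeq, build GRCm38.p6, and cover 250 bases before to 50 bases after a start site on the plus strand, with CpG dinucleotides in capitals. Ccnd3 has entries for 2 start sites, at chr17:47504801-47505100 and chr17:47593217-47593516, Cdk6 has 1 at chr5:3343643-3343942 and Cdkn1b has 1 at chr6:134920151-134920450. Ccnd1 and Ccnd2 had no entry under these names among the promoter sequences, so they are named only. These positions belong to another build than the peaks, so no peak was placed on a start site.
Ccnd3, upstream start: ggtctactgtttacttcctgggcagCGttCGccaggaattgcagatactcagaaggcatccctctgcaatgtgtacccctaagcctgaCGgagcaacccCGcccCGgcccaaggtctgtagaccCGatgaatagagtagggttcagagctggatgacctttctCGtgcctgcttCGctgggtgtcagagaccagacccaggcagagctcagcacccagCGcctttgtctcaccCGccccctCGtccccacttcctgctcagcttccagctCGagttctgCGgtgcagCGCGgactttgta
Ccnd3, downstream start: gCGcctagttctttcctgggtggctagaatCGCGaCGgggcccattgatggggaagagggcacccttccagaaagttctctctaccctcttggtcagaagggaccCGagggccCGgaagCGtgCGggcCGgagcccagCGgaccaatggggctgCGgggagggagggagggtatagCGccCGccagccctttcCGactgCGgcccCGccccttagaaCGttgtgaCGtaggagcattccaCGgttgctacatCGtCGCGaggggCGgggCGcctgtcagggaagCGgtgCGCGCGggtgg
Cdk6: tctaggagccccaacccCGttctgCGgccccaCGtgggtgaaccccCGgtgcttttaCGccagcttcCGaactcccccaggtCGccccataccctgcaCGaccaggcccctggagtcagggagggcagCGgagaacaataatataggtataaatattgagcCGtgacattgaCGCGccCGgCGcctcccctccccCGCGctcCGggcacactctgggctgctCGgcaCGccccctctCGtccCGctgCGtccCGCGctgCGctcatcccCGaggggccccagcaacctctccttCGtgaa
Cdkn1b: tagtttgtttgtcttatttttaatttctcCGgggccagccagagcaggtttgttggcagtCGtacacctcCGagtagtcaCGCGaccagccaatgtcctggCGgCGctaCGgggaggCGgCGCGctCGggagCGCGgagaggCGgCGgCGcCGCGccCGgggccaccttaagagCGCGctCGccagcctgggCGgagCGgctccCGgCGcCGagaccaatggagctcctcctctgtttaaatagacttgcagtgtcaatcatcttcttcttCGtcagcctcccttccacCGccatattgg

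Cdkn1b held the most CpG dinucleotides of the 4 stretches, 30 in 300 bases, a number reached by 11.7% of the 32851 promoters in the table. The downstream start of Ccnd3 held 28 and Cdk6 held 27, numbers reached by 14.2% and 15.5% of promoters. The upstream start of Ccnd3 was poorer, with 15, a number reached by 34.6%. The median promoter held 7. The G and C content was 62.0% for Cdkn1b, 67.0% for the downstream and 59.3% for the upstream start of Ccnd3, and 66.7% for Cdk6, against a median of 52.7%.

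Short motifs were searched on both strands, and positions count from the start site, negative before it. A position is that of the lowest base of the match on the printed strand. Matches that read on the other strand are named as such. CCAAT, the letters bound by NF-Y, occurred 3 times in Cdkn1b, at -161, at -35 and, on the other strand, at 46. It occurred once at the downstream start of Ccnd3 (-108), and is present in 37.4% of promoters. GGGCGG, the box bound by Sp factors, lay at -61 in Cdkn1b and is present in 35.7% of promoters. At the upstream start of Ccnd3 it lay at -152 and -18, both on the other strand. At the downstream start of Ccnd3 it lay at -46 on the other strand and at 12. Cdk6 held neither, but had CACGTG, the E-box of Myc and related factors, at -220 (7.15% of promoters hold it) and TATAAA at -103 (13.6%). GTAAACA, a FOXO motif, was found on the other strand at -243 at the upstream start of Ccnd3 and is present in 3.65% of promoters. TTTNGCGC, an E2F motif present in 1.38% of promoters, and TTCNNNGAA, a STAT motif present in 8.30%, had no match in these 4 stretches. A match is a run of letters and not a binding site.

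All 23 H3K4me3 peaks of the windows overlapped H3K27ac (100%, exact 95% binomial interval 85.2 to 100%), against 86.1% of the whole list. Of the 42 H3K27ac peaks, 21 overlapped H3K4me3 (50%, interval 34.2 to 65.8%), near the 52.3% of the whole list. A shared base pair counts as overlap. The peak score is the authors' own, its scale is not defined in the sources used here, and 6863 H3K27ac and 9042 H3K4me3 peaks are tied at 3100, called the ceiling below although 243 H3K27ac and 75 H3K4me3 peaks score above it. No peak of the windows scored above 3100. Scores of 3100 or more were given to 17 of the 42 H3K27ac peaks (40.5%, interval 25.6 to 56.7%), against 24.1% of all H3K27ac peaks, and 13 of the 23 H3K4me3 peaks (56.5%, interval 34.5 to 76.8%), against 50.3% of all H3K4me3 peaks. Scores of the marks are not comparable with each other.

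Wide peaks were more frequent in the windows than in the lists. Widths of 4000 bp or more were found for 15 of the 42 H3K27ac peaks (35.7%, interval 21.6 to 52.0%), against 10.9% of the whole list, and for 7 of the 23 H3K4me3 peaks (30.4%, interval 13.2 to 52.9%), against 5.83%. The median widths were 2225 bp in the windows and 1782 bp in the list for H3K27ac, and 1834 bp and 1807 bp for H3K4me3. H3K27ac covered 28.9% of the window length, against 2.53% of the length between the first and last peak of the chromosomes, and H3K4me3 covered 12.1%, against 1.37%. Because the windows were drawn around named genes with earlier results known, and peaks of 1 window are neighbours, these shares describe the windows and were not tested. There is 1 library per mark, so no value has a replicate error. The intervals treat neighbouring peaks as independent, so they do not measure whether the windows differ from the lists. The number of reads is unknown.

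**Figure D1:**
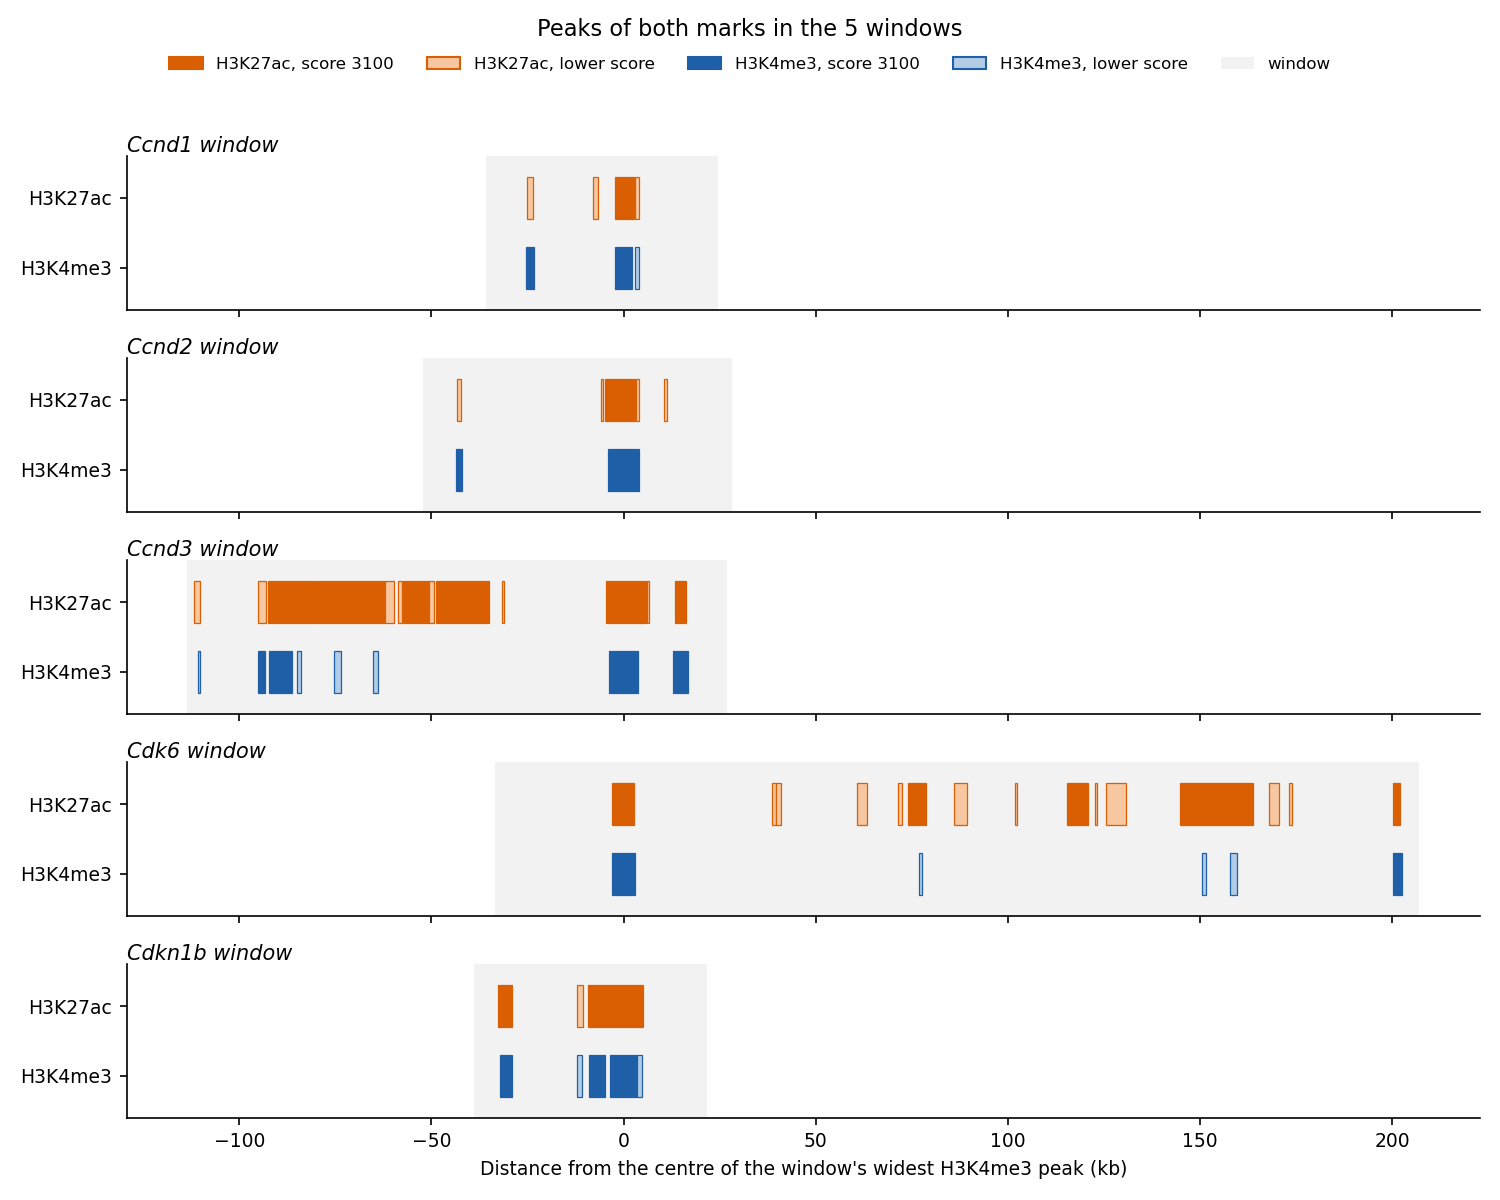
Positions of the peaks of both marks in each window (grey), in kb from the centre of the widest H3K4me3 peak of that window; filled boxes have a score of 3100 and pale boxes a lower one. The Ccnd3 window shows a nearly unbroken run of H3K27ac, the Cdk6 window scattered H3K27ac peaks between H3K4me3 peaks at both ends, and the Cdkn1b window a single wide H3K27ac peak over 3 H3K4me3 peaks.

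The Ccnd1 window, around the gene of cyclin D1, held the least marked chromatin in kb, 8.87 kb of H3K27ac and 7.56 kb of H3K4me3, and the marks lay almost on top of each other. As a share of window length this was 14.8% under H3K27ac and 12.6% under H3K4me3, where Ccnd2 had 14.0% and 12.0%, and Cdk6 had 23.1% and 5.13%. Its main H3K27ac peak, chr7:152123325-152128291, measured 4967 bp and scored 3100. The H3K4me3 peak under it, chr7:152123270-152127873, measured 4604 bp and also scored 3100. H3K27ac began 55 bp inside the low end of this H3K4me3 peak and reached 418 bp beyond its high end. A weak neighbour in both lists followed at once: the H3K27ac peak chr7:152128591-152129608 (1018 bp, score 161.27) and the H3K4me3 peak chr7:152128642-152129638 (997 bp, score 151.46).

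A second site of both marks lay at the low end of the Ccnd1 window, with H3K27ac at chr7:152100477-152101992 (1516 bp, score 1365.32) inside H3K4me3 at chr7:152100291-152102253 (1963 bp, score 3100). Between these sites stood the window's only H3K27ac peak without H3K4me3, chr7:152117648-152119020, of 1373 bp and with a score of 143.12, at 4.25 kb from the nearest H3K4me3 peak. In RefSeq order, Ccnd1 stands between the protein-coding genes LTO1 and Tpcn2. Which gene each site belongs to was not determined.

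The Ccnd2 window, around the gene of cyclin D2, was dominated by a single wide site of both marks. Its H3K27ac peak, chr6:127097239-127105105, measured 7867 bp and scored 3100. The H3K4me3 peak at the same place, chr6:127098014-127105980, measured 7967 bp, scored 3100 and was the widest H3K4me3 peak of all 5 windows, rank 44 of 18142 by width. H3K27ac began 775 bp before the H3K4me3 peak and ended 875 bp short of its high end. That remainder was filled by a separate H3K27ac peak, chr6:127105115-127105968 (854 bp, score 122.62), which began 9 bp after the end of the wide one.

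The remaining H3K27ac at Ccnd2 was sparse. The peaks without H3K4me3 were chr6:127096086-127096678 (593 bp, score 53.23) and chr6:127112483-127113252 (770 bp, score 96.59), at 1.34 and 6.50 kb from H3K4me3. Both had scores under 100, close to the lowest score of the list, 50.01. A separate site at the low end carried H3K27ac at chr6:127058578-127059690 (1113 bp, score 711.59) inside H3K4me3 at chr6:127058452-127060090 (1639 bp, score 3100). Ccnd2 follows Tigar and precedes Parp11 among protein-coding genes, and this site was not assigned.

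The Ccnd3 window, around the gene of cyclin D3, held the most acetylated chromatin. H3K27ac covered 73.0 kb, or 52.2% of the window, and H3K4me3 covered 23.8 kb, or 17.0%. Of its 15 H3K27ac peaks, 8 scored 3100, and 7 measured at least 4000 bp. A run of 10 of these peaks, chr17:47638110-47698123, spanned 60014 bp, was interrupted only by gaps of 44 to 951 bp, and had 95.1% of its length under peaks. With H3K27ac peaks joined across gaps of up to 1000 bp, this domain was the second widest of 25365 in the genome. With a limit of 500 bp it broke up, and its widest piece measured 32.8 kb and ranked 11 of 26382; with 2000 bp it was the third widest of 23811.

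H3K4me3 was uneven along this acetylated run. Its low end carried H3K4me3 at the ceiling, in the peaks chr17:47637992-47639825 (1834 bp) and chr17:47641038-47646896 (5859 bp). Then came 3 narrow H3K4me3 peaks with lower scores, chr17:47648140-47649272 (1133 bp, score 251.91), chr17:47658021-47659722 (1702 bp, score 623.65) and chr17:47668136-47669383 (1248 bp, score 372.42). Each of them lay on H3K27ac peaks at the ceiling, of 5131 to 8745 bp. The last 28.7 kb of the run held no H3K4me3 peak. There stood the widest H3K27ac peak of the window, chr17:47684444-47698123, with 13680 bp, a score of 3100 and rank 116 of 29468 by width, at 15.1 kb from the nearest H3K4me3, and another ceiling peak without H3K4me3, chr17:47675773-47682654 (6882 bp), at 6.39 kb.

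The high end of the Ccnd3 window held other sites of both marks. The H3K27ac peak chr17:47728698-47739108, of 10411 bp, wholly covered the H3K4me3 peak chr17:47729512-47736963, of 7452 bp and rank 63 of 18142 by width. Both scored 3100. H3K27ac extended 814 bp beyond the low end of H3K4me3 and 2145 bp beyond its high end. At chr17:47746715-47749620 an H3K27ac peak of 2906 bp lay inside an H3K4me3 peak of 3969 bp (chr17:47746048-47750016), so here H3K4me3 was the wider mark. Ccnd3 stands between Taf8 and Bysl, and RefSeq lists 2 start sites for it, and which of the 4 H3K4me3 peaks at the ceiling belong to it was not determined.

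At the low edge of the Ccnd3 window, a weak H3K27ac peak (chr17:47621573-47623130, 1558 bp, score 361.85) overlapped the weakest H3K4me3 peak of the windows (chr17:47622587-47623145, 559 bp, score 79.64). Peaks of both marks lay close outside the high end of this window. An H3K27ac peak of 2619 bp with a score of 2508.65 lay 5.18 kb past it. An H3K4me3 peak of 3088 bp at the ceiling lay 5.13 kb past it. The last members inside, the pair at chr17:47746715-47749620 and chr17:47746048-47750016, ended 10.4 and 9.98 kb from that edge. At the other windows the nearest peak outside lay at 17.2 kb or more. With all windows widened by 20 kb, the Ccnd3 window held 16 H3K27ac and 9 H3K4me3 peaks, against 15 and 8. The Ccnd1 window then held 5 H3K27ac peaks, against 4, and the other counts did not change.

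The Cdk6 window, around the gene of the kinase partner, was the longest and showed scattered acetylation with little H3K4me3. H3K27ac covered 55.3 kb in 15 peaks, and H3K4me3 covered 12.3 kb in 5 peaks. Only 2 of the H3K4me3 peaks were at the ceiling, and they stood near the ends. At the low end, H3K27ac at chr5:3340159-3345798 (5640 bp) and H3K4me3 at chr5:3340190-3346183 (5994 bp) both scored 3100 and shared 5609 bp. At the high end, H3K27ac at chr5:3543479-3545144 (1666 bp) lay inside H3K4me3 at chr5:3543354-3545837 (2484 bp), also at the ceiling in both lists. The next protein-coding gene after Cdk6 is Fam133b, and the peaks at the high end were not assigned to either.

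Between these ends lay 13 H3K27ac peaks, of which 11 had no H3K4me3. The widest H3K27ac peak of all 5 windows stood here, chr5:3487898-3506960, with 19063 bp, a score of 3100 and rank 31 of 29468 by width. It covered 2 H3K4me3 peaks of 1188 and 1834 bp (scores 338.70 and 690.50), which together lay under 15.9% of its length. A second acetylated site at the ceiling, chr5:3417204-3421901 (4698 bp), held an H3K4me3 peak of 809 bp with a score of 130.54. Another at the ceiling, chr5:3458512-3464047 (5536 bp), held none and was 29.6 kb from the nearest H3K4me3 peak.

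The other H3K27ac peaks between the ends of the Cdk6 window scored below the ceiling. The highest of these were chr5:3403854-3406486 (2633 bp, score 1982.96) and chr5:3468818-3473858 (5041 bp, score 1256.90), at 13.6 and 19.8 kb from H3K4me3. The farthest from H3K4me3 were the weak neighbours chr5:3381802-3382877 (1076 bp, score 86.16) and chr5:3382937-3384097 (1161 bp, score 165.34), at 35.6 and 36.0 kb. Over all 11 peaks without H3K4me3, the median width was 1161 bp, the median score 165 and the median distance 19.8 kb.

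The Cdkn1b window, around the gene of the inhibitor p27Kip1, had 32.5% of its length under H3K27ac and 28.5% under H3K4me3, the highest H3K4me3 share of the 5 windows. All 3 of its H3K27ac peaks and all 5 of its H3K4me3 peaks overlapped the other mark. A single H3K27ac peak, chr6:134869329-134883580, measured 14252 bp, scored 3100 and ranked 99 of 29468 by width. Beneath it lay 3 H3K4me3 peaks: chr6:134869601-134873924 (4324 bp, score 3100), chr6:134875103-134882165 (7063 bp, score 3100, rank 80 of 18142 by width) and chr6:134882243-134883324 (1082 bp, score 252.07). Together they covered 87.5% of the acetylated peak. H3K27ac reached 272 bp beyond their low end and 256 bp beyond their high end, and it ran without a break across the gaps of 1178 and 77 bp between them.

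Just below it stood a smaller site, with H3K27ac at chr6:134866500-134867979 (1480 bp, score 576.74) and H3K4me3 at chr6:134866479-134867832 (1354 bp, score 1700.48), 1349 bp before the wide H3K27ac peak. Another site, at chr6:134845887-134849635 for H3K27ac (3749 bp) and chr6:134846406-134849696 for H3K4me3 (3291 bp), scored 3100 for both marks. Cdkn1b stands between Gpr19 and Apold1 among protein-coding genes. These sites were not assigned to a gene.

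**Figure D2:**
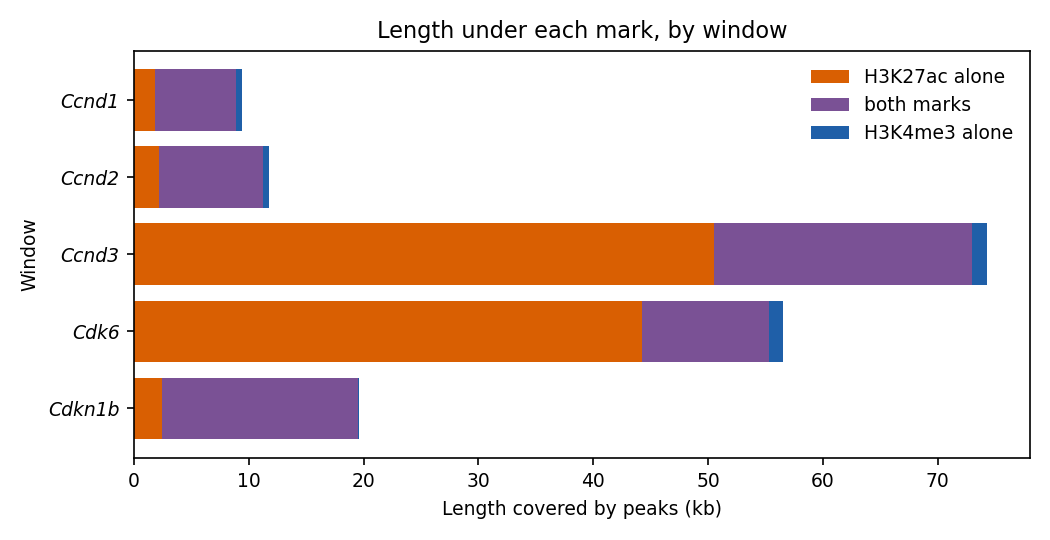
Length of each window covered by H3K27ac alone, by both marks and by H3K4me3 alone, in kb. H3K27ac alone covers 50.6 kb in the Ccnd3 window and 44.2 kb in the Cdk6 window, and 1.84 to 2.45 kb in the windows of Ccnd1, Ccnd2 and Cdkn1b.

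The windows separated by how much acetylation lay outside H3K4me3. Outside were 79.9% of the H3K27ac length in the Cdk6 window (44.2 kb) and 69.2% in the Ccnd3 window (50.6 kb). The shares were 20.8% for Ccnd1 (1.84 kb), 19.1% for Ccnd2 (2.14 kb) and 12.6% for Cdkn1b (2.45 kb), and 54.3% over the whole H3K27ac list. The ratio of H3K27ac length to H3K4me3 length was 4.50 for Cdk6 and 3.07 for Ccnd3, and 1.14 to 1.17 in the other windows, against 1.84 for the lists. The reverse class was small: H3K4me3 outside H3K27ac came to 82 to 1302 bp per window, and 94.8% of all H3K4me3 length in the windows was shared, against 84.3% over the list. The windows differ in length and were drawn by hand, so these shares can depend on where their edges lie. With windows widened by 20 kb, the H3K27ac length outside H3K4me3 rose from 1.84 to 2.63 kb at Ccnd1. It did not change at the other windows, and narrower windows were not tried.

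The same split appeared in the part of this H3K27ac that lay far from H3K4me3. H3K27ac more than 2 kb from any H3K4me3 peak came to 35.0 kb in the Ccnd3 window and 33.2 kb in the Cdk6 window. It came to 1.37 kb in the Ccnd1 window, 0.770 kb in the Ccnd2 window and 0 kb in the Cdkn1b window. As shares of H3K27ac length these were 59.9% at Cdk6, 48.0% at Ccnd3, 15.5% at Ccnd1, 6.88% at Ccnd2 and 0% at Cdkn1b. The distance of 2 kb was set after the values were seen. Being a part of the length outside H3K4me3, these values are no separate support for the split.

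The 21 H3K27ac peaks without H3K4me3 were mostly narrow and low in score, with exceptions at Ccnd3 and Cdk6. Cdk6 had 11 of them, Ccnd3 had 7, Ccnd2 had 2, Ccnd1 had 1 and Cdkn1b had none. Their median width was 1161 bp and their median score 143, close to the 1252 bp and 188 of the 14059 H3K27ac peaks without H3K4me3 in the list. For the 21 peaks overlapping H3K4me3 the medians were 4698 bp and a score of 3100, where all 15409 such peaks of the list had 2245 bp and 2414. At the ceiling were 3 of the 21 peaks without H3K4me3, those of 6882 and 13680 bp at Ccnd3 and of 5536 bp at Cdk6. Over all H3K27ac peaks the share at 3100 or more was 24.1%. The share among all peaks without H3K4me3 is not given here, so whether 3 is many for this class is not known. All of the H3K27ac peaks without H3K4me3 lay between 1.34 and 36.0 kb from H3K4me3.

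**Figure D3:**
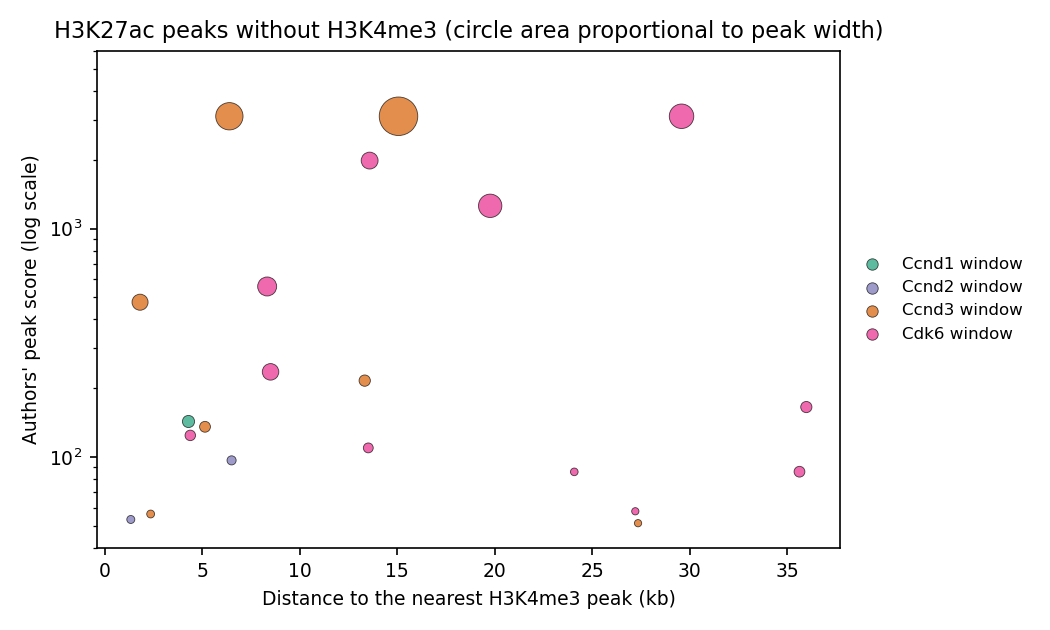
The 21 H3K27ac peaks without H3K4me3, with the distance to the nearest H3K4me3 peak in kb on the horizontal axis and the authors' score on a logarithmic vertical axis; circle area is proportional to width and colour gives the window. The 3 peaks at the ceiling belong to Ccnd3 and Cdk6, and the Cdkn1b window has no such peak.

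Stitching H3K27ac peaks that lay within 12.5 kb of each other gave 15 regions that held peaks of the windows, out of 16134. Regions were ranked by summed peak length and peaks with H3K4me3 were kept, so a long region need not be an enhancer. Of these, 5 passed the limit of 11.2 kb of summed peak length, the point where the ranked curve turns upward, which 6.40% of all stitched regions pass. They were found at Ccnd3 (2 regions), Cdk6 (2 regions) and Cdkn1b (1 region). The longest, chr17:47638110-47702170 at Ccnd3, summed 57.6 kb in 11 peaks over a span of 64.1 kb and ranked 19. Its peaks filled 89.9% of the span. The other long region at Ccnd3, chr17:47728698-47749620, summed 13.9 kb, ranked 716 and held 2 H3K4me3 peaks.

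At Cdk6, the region chr5:3487898-3517172 summed 22.5 kb in 3 peaks and ranked 245, and chr5:3403854-3445490 summed 12.2 kb in 5 peaks and ranked 895. That region was thin, with 29.4% of its 41.6 kb span under peaks. Another region, chr5:3458512-3473858, summed 11.1 kb, just short of the limit, ranked 1060 and held no H3K4me3. The low-end site of the Cdk6 window stood alone with 5.64 kb and ranked 2977.

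The long region at Cdkn1b, chr6:134866500-134883580, summed 15.7 kb in 2 peaks and ranked 555, and 4 H3K4me3 peaks lay in it. The largest regions at Ccnd2 and Ccnd1 fell short of the limit, with 10.1 kb (rank 1245) and 7.36 kb (rank 2030). By summed length of their largest region, the windows therefore ran Ccnd3, Cdk6, Cdkn1b, Ccnd2 and Ccnd1. With no replicate, whether neighbours in this order differ beyond error is not known.

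**Figure D4:**
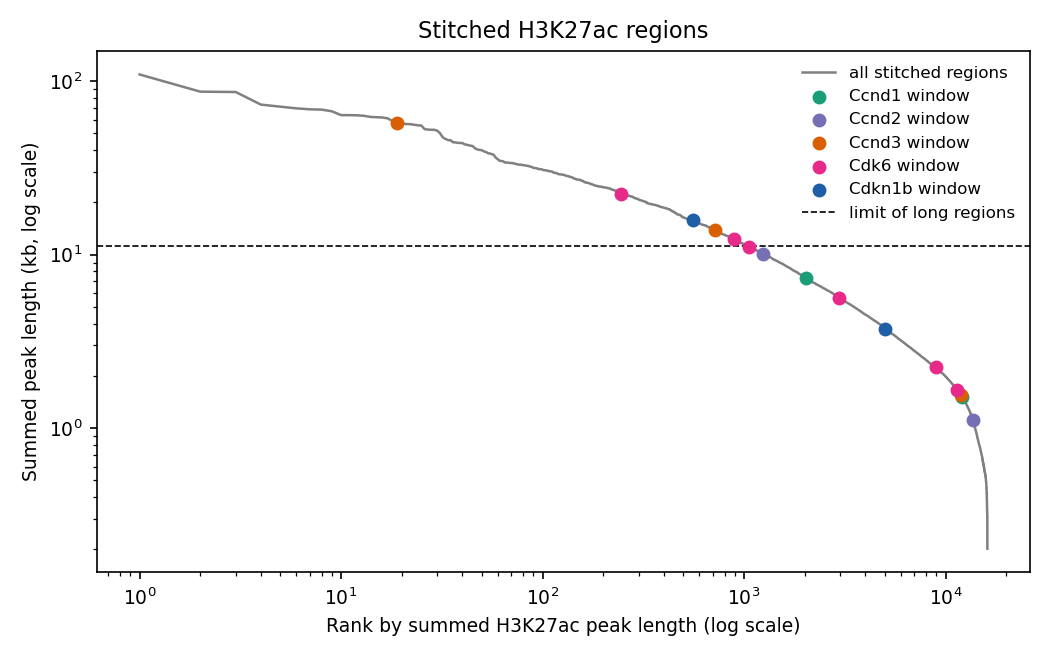
Summed H3K27ac peak length of every stitched region (grey line, logarithmic axes, in kb) against its rank, with the 15 regions of the windows as coloured points and the limit of 11.2 kb dashed. The Ccnd3 region at rank 19 stands highest, 5 of the regions lie above the limit, and the regions of Ccnd1 and Ccnd2 lie below it.

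Every window held a broad H3K4me3 domain. Joining H3K4me3 peaks across gaps of up to 1000 bp gave 21 domains in the windows, of which 6 were among the widest in the genome by the limit of the widest 5%, met by 5.01% of all 17471 domains. The widest was at Cdkn1b (chr6:134875103-134883324, 8.22 kb, rank 57), followed by Ccnd2 (7.97 kb, rank 70), the high-end site of Ccnd3 (7.45 kb, rank 101), Ccnd1 (chr7:152123270-152129638, 6.37 kb, rank 193), Cdk6 (5.99 kb, rank 252) and the low-end site of Ccnd3 (5.86 kb, rank 276). As a share of all domains, their ranks ran from 0.326 to 1.58%. The order depends on the joining distance: across gaps of up to 2000 bp the widest domain measured 16.8 kb at Cdkn1b and 11.3 kb at Ccnd3, which then stood before Ccnd2. Across gaps of up to 500 bp the longest domain at Ccnd1 measured 4.60 kb, the least among the longest domains of the windows.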

How the data were processed

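Chromatin from cultured cells was immunoprecipitated for each mark and sequenced. Per the submitters' processing notes, the authors called peaks with MACS, a finder of regions enriched over a control, on the mouse build mm9. Its version, the aligner, the filters and the number of reads were not stated. The deposited files give a start, an end and the authors' score for each peak, from 1 library per mark. Positions are counted from 1.

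Members and lists were chosen with earlier results of these data known. Peaks sharing at least 1 bp with a window were kept, and all were accounted for. H3K27ac peaks up to 12.5 kb apart were stitched into regions, ordered by the sum of their peak lengths, and called long past the slope of 1 on the curve of scaled lengths. H3K4me3 peaks within 1000 bp were joined. Intervals are exact (Clopper-Pearson, 95%) and treat peaks as independent. With 1 library per mark no test was made. The named items are the 5 genes, every H3K4me3 peak and the H3K27ac peaks covering them, and the widest peaks; other H3K27ac peaks without H3K4me3 were named after their values were seen. The reference tables follow GRCm38.p6, so start sites, other cell-cycle genes and B-cell marker genes were not matched to peaks, the genes inside the windows were not checked, and gene order alone was taken from them. Calculations used Python 3.11.15, NumPy 2.4.6, SciPy 1.17.1 and pandas 2.3.3. The scripts were checked on made-up intervals with known overlaps.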

Additional observations from a re-analysis of the deposited data

How the results depend on the processing

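Alternatives covered the score minimum, the window edges, the overlap that counts as shared, and the distances for joining and stitching. Of 166 alternative values, 155 stayed within 1.5 times the reported value, or within its interval for a percentage, and 11 moved further. These bounds were set by hand, since no replicate exists. The 155 include values that could not move. All member peaks lay wholly inside their windows, so requiring 50% of a peak inside changed nothing. The number of stitched regions in the windows, 15, became 9 with a distance of 20000 bp. The regions above the limit numbered 4 to 6, against 5, and the broad H3K4me3 domains 6 to 7, against 6. Every H3K4me3 peak overlapped H3K27ac also with an overlap of 50% of the shorter peak (23 of 23) and with scores of at least 100 (22 of 22). After joining, 21 of 21 overlapped, which had to follow because joining keeps every base of the peaks. With scores of at least 100, 20 of 35 H3K27ac peaks overlapped H3K4me3 (57.1%). The other 10 moved values belong to single windows. At Ccnd2, scores of at least 100 left 3 of 5 H3K27ac peaks and 0.775 kb outside H3K4me3, and joining left 3. At Ccnd3, joining turned 15 H3K27ac peaks into 5, a joining distance of 500 bp gave a widest H3K27ac domain of 32.8 kb, and one of 2000 bp gave a widest H3K4me3 domain of 11.3 kb. At Cdk6, a stitching distance of 20000 bp raised the largest region to 48.0 kb, and at Cdkn1b a joining distance of 2000 bp gave an H3K4me3 domain of 16.8 kb. Counting only H3K27ac over 2000 bp from H3K4me3, an alternative added after the data were seen, as was the joining of H3K27ac across 500 or 2000 bp, left 0.770 kb at Ccnd2 and 0 kb at Cdkn1b. No paired analysis was possible because there is 1 library per mark and no test. Read depth is unknown, so a missing peak does not show that a mark is absent.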
